A study of Mus musculus with 8 samples.

Results

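The loss of the dioxygenase gene Tet1 was followed in skeletal stem cells (SSC), a cell population sorted from neonatal mouse bone, by setting Tet1 knockout (KO) against wild type. The comparison used the 4 SSC libraries of the 8 bulk RNA-seq libraries in the study, 2 wild type and 2 KO, chosen by their labelled cell type. In the count table the KO columns read SCC where the titles read SSC, and 1 KO column reads BCP for BCSP, so these were matched by genotype and round to the one title left. The other 4 libraries, 2 wild type and 2 KO, came from bone cartilage stromal progenitors (BCSP), a sorted population downstream of the stem cell, and serve here only for contrast. Every library came from FACS-sorted cells of the femur of neonates aged 3 to 5 days. The strain given for all 8, wild type as well as KO, is B6;129S4-Tet1tm1.1Jae/J. Within each group the libraries are numbered round 1 and round 2 and are called library 1 and library 2 below. Pup sex, the sort gates and any pooling of animals do not appear in the sources used here, so a p-value speaks only of the spread between these samples, which may be technical. As far as is known the allele removes an internal exon in all cells of the animal.

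TET1 oxidises 5-methylcytosine in DNA, mostly at CG dinucleotides, which is a step towards removing the methyl mark, and it also recruits chromatin regulators. Its relatives Tet2 and Tet3 encode enzymes with the same chemistry. The mouse SSC is known as a self-renewing cell of the growing bone that gives rise to cartilage, bone and stroma, and BCSP are among its early progeny. The series title ties TET1 to cartilage regeneration by SSC in osteoarthritis.

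Levels are given as CPM, a gene's count as a share of the scaled total of its library, and 1 CPM stood for at least 110.697 counts. Fold changes are log2 of KO over wild type with their standard error (SE), from edgeR's quasi-likelihood fit across all 8 libraries, with Benjamini-Hochberg adjustment over 22153 genes and a threshold of 0.05. SSC libraries held 104782544 to 131057121 counts. The cartilage collagen Col2a1 took 24.7% to 27.0% of them, and Sox9, the master regulator of chondrocytes, was measured at 1163, 1273, 1378 and 1113 CPM in wild-type libraries 1 and 2 and KO libraries 1 and 2. The sort markers Itgav and Cd200 were present at 42.2 to 58.4 CPM and 24.2 to 49.7 CPM. The markers that SSC should lack were low: Eng was at 2.53 to 3.89 CPM, Thy1 at 0.214 to 1.14 CPM, Tek at 0.00772 to 0.391 CPM and the blood marker Ptprc at 0.00752 to 1.08 CPM.

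Library composition differed in ways that move with genotype or with 1 library, and these values stand beside the results below. The Y-linked genes Ddx3y, Uty, Eif2s3y and Kdm5d were all higher in both KO than in both wild-type libraries, and the X-inactivation transcript Xist was lower in both. Xist was measured at 441.4 and 560.5 CPM in wild type against 74.95 and 291 CPM in KO. Ddx3y was measured at 35.6 and 39.7 CPM in wild type against 68.2 and 81.7 CPM in KO. The sex of the pups, which these genes track, and the genotype cannot be told apart. Blood transcripts stood out in wild-type library 1: the 17 tested neutrophil genes summed to 226 CPM there, against 2.78 CPM in wild-type library 2 and 20.03 and 10.5 CPM in KO libraries 1 and 2.

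**Figure D1:**
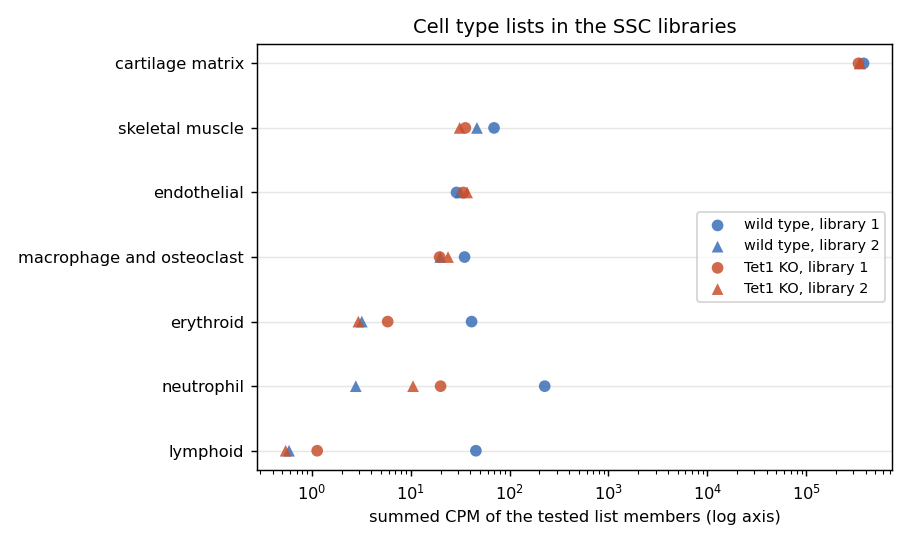
Summed CPM (log axis) of the tested members of 7 cell type lists in each SSC library, with blue for wild type, orange for KO, circles for library 1 and triangles for library 2. Wild-type library 1 stands apart for the neutrophil, erythroid and lymphoid lists, while the cartilage list lies between 339078 and 381589 CPM in all 4.

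Tet1 itself, at mm10 chr10:62804570-62908996 on the minus strand, was measured at 15.6 and 19.6 CPM in wild type against 7.26 and 11.8 CPM in KO. Both KO libraries lay below both wild-type libraries, but transcripts of the gene were still counted in them. The log2 fold change was -0.89 ± 0.34 (SE), with an edgeR adjusted p of 1. In the SSC libraries alone with round as a block, the edgeR adjusted p was 4.32e-04. In BCSP, Tet1 was measured at 21.6 and 10.98 CPM in wild type against 10.8 and 11.97 CPM in KO. Those groups overlapped, and in round 2 the KO library lay 0.12 (log2) above wild type. The BCSP log2 fold change was -0.52 ± 0.33, with an edgeR unadjusted p of 0.146. Counts over a whole gene with 1 exon deleted are a weak check of genotype. Tet2 was measured at 39.5 and 55.7 CPM in wild type against 46.7 and 71.3 CPM in KO (log2 0.31 ± 0.38). Tet3 stood at 46.1 and 57.8 CPM in wild type against 52.1 and 60.5 CPM in KO (log2 0.12 ± 0.24). The wild-type and KO libraries overlapped for both. Of the 22 tested genes of the TET and DNA methylation machinery, none passed the threshold, with a median log2 fold change of 0.01. After Tet1, the lowest p-values in that list belonged to the methyl-CpG binding gene Mbd1 (0.25 ± 0.24), the O-GlcNAc transferase Ogt (0.35 ± 0.35) and the CXXC zinc-finger gene Cxxc5 (0.21 ± 0.23).

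In SSC 1 gene passed the threshold, 0.00451% of the genes tested. Trf, at chr9:103204001-103230444 on the minus strand, encodes transferrin, the secreted carrier of iron in plasma and extracellular fluid. Its level was 16.5 and 17.7 CPM in the wild-type libraries, against 2.66 and 2.59 CPM in the KO libraries. The libraries of each genotype lay close together, and the groups stood far apart. In bulk samples like these, fewer cells making a transcript and less of it per cell cannot be told apart. Trf fell by 2.62 on the log2 scale in round 1 and fell by 2.77 in round 2. The fitted log2 fold change was -2.70 ± 0.29 (SE), a level 6.51 times higher in wild type, with an edgeR adjusted p of 0.0109. With round as a block the adjusted p was 0.00191. The call ended when any 1 of the 4 SSC libraries was left out (edgeR adjusted p 0.0680 and 0.116 without wild-type library 1 or 2, 0.294 and 0.224 without KO library 1 or 2), in the SSC libraries alone without a block (0.0503), with limma-voom (0.0881) and with the mean level of the Y-linked genes added to the model (0.601). The Y-linked mean moves with genotype, so that last fit cannot part sex from genotype. Over all alternatives run the fold change lay between -2.75 and -2.01.

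Of the nearest genes around Trf with at least 1 CPM, 7 including Ryk had log2 fold changes of -0.32 to 0.30, with no adjusted p under 1 and overlapping groups for each. The gene model Gm20425 overlaps exons of Trf on the same strand and had 0 CPM. Other iron genes lay on both sides of 0. Of the 29 tested iron handling genes 12 lay above 0 and 17 below, with a median of -0.03 beside 0.01 over all tested genes, and Trf was the only one past the threshold. Tfr2, a transferrin receptor that senses iron, was measured at 0.748 and 0.903 CPM in wild type against 0.0903 and 0.210 CPM in KO. Its groups did not overlap, and its log2 fold change was -2.44 ± 0.75 with an edgeR adjusted p of 1. The metal importer Slc39a8 (0.67 ± 0.41) and the ferroxidase Cp (0.52 ± 0.42) were higher in both KO libraries and did not pass.

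Below the threshold, 141 genes were higher (0.636%) and 125 lower (0.564%) in KO at an unadjusted p under 0.05. The 12 genes of lowest p on each side, among genes of at least 1 CPM with the same sign in both rounds, are described next. Their p-values chose them, so their separation is a description. Apart from Trf, each had an edgeR adjusted p of 1.

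On the lower side the levels were modest, with a median of 1.93 CPM. Cd59a, at chr2:104095801-104115354, encodes a membrane-anchored inhibitor of the complement attack complex. Its levels were 3.75 and 2.57 CPM in wild type against 0.443 and 0.459 CPM in KO, which gave a log2 fold change of -2.81 ± 0.52. The KO libraries were close to each other and well below both wild-type libraries. Ulbp1, a stress ligand of the natural killer receptor NKG2D, was measured at 1.73 and 2.01 CPM in wild type against 0.361 and 0.286 CPM in KO (log2 -2.53 ± 0.58). The luteinising hormone receptor gene Lhcgr stood at 3.70 and 2.93 CPM in wild type against 0.623 and 0.970 CPM in KO (log2 -2.06 ± 0.48). Neither gene had overlapping groups.

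Adm2, at chr15:89322720-89324731, encodes adrenomedullin 2, a peptide hormone of the calcitonin family. Its level was 10.3 and 10.9 CPM in wild type against 5.40 and 3.77 CPM in KO, which gave a log2 fold change of -1.21 ± 0.29. The wild-type libraries lay close together and both above KO. Its relatives and receptor parts lay on both sides of 0. Of 8 tested family members 3 lay above 0 and 5 below, with a median of -0.08. The receptor-modifying proteins Ramp1 (0.28 ± 0.38) and Ramp2 (0.21 ± 0.31) were slightly higher in both KO libraries, and the calcitonin gene Calca (0.63 ± 0.89) had overlapping groups.

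The hearing-related myosin Myo15 was measured at 4.76 and 4.74 CPM in wild type against 2.10 and 2.19 CPM in KO. Pstpip2, a membrane-bending adaptor that restrains inflammation, stood at 5.62 and 4.29 CPM in wild type against 1.86 and 1.76 CPM in KO. Mcoln3, an endolysosomal cation channel, stood at 6.70 and 3.41 CPM in wild type against 1.96 and 1.62 CPM in KO. The rest of the 12 were the potassium channel subunit Kcne1l, the GPI-anchored protein gene Lypd3 and the noncoding RNAs D130017N08Rik and 1700048O20Rik. Their log2 fold changes lay between -2.19 and -1.63, and both KO libraries lay below both wild-type libraries for each.

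On the higher side the fold changes were smaller and the levels higher, with medians of 0.94 (log2) and 12.5 CPM. Tbx4, at chr11:85886422-85916097, encodes the T-box factor that marks the developing hindlimb. Its levels were 12.5 and 18.6 CPM in wild type, against 27.5 CPM in both KO libraries, which gave a log2 fold change of 0.82 ± 0.24. The KO libraries were level and both exceeded wild type, by 1.14 (log2) in round 1 and 0.56 in round 2. Other limb and T-box genes were closer to 0: of 22 tested, 13 lay above and 9 below, with a median of 0.09. Tbx2 (0.89 ± 0.49) and Tbx15 (0.37 ± 0.23) were higher in both KO libraries, while Lmx1b (0.46 ± 0.37) had overlapping groups.

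Zfp853, a zinc-finger gene at chr5:143287038-143293623, had the largest fold change of the 12. Its level was 0.305 and 0.270 CPM in wild type, which is 40 and 35 counts, against 1.59 and 2.11 CPM in KO, which is 176 and 281 counts (log2 2.68 ± 0.60). Amd2, which encodes an S-adenosylmethionine decarboxylase of polyamine synthesis and has close copies elsewhere, stood at 0.458 and 0.941 CPM in wild type against 2.66 and 2.59 CPM in KO. Neither gene had overlapping groups, and reads shared with the copies of Amd2 may sit with either.

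Secreted signals were among the others. Clcf1, a cytokine of the interleukin-6 family, was measured at 8.68 and 9.54 CPM in wild type against 15.2 and 18.3 CPM in KO (log2 0.88 ± 0.28). Cxcl12, the chemokine that holds blood progenitors in the marrow, stood at 3.43 and 3.87 CPM in wild type against 5.54 and 7.55 CPM in KO (log2 0.84 ± 0.28). Both were higher in each KO library than in either wild-type library. Nes, the intermediate filament nestin of stromal progenitors, was measured at 9.98 and 13.9 CPM in wild type against 17.9 and 25.6 CPM in KO (log2 0.87 ± 0.29). Tnmd, tenomodulin of tendon cells, stood at 10.1 and 7.62 CPM in wild type against 15.4 and 15.5 CPM in KO (log2 0.81 ± 0.27). The growth-factor signalling inhibitor Spred3 (1.12 ± 0.37) and the zinc-finger gene Zfp365 (0.99 ± 0.32) completed the autosomal and X-linked genes, and the remaining 3 were the Y-linked Ddx3y, Uty and Eif2s3y. Exons of Spred3 overlap those of Ggn on the other strand, and the strand setting of the counting is unknown here.

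**Figure D2:**
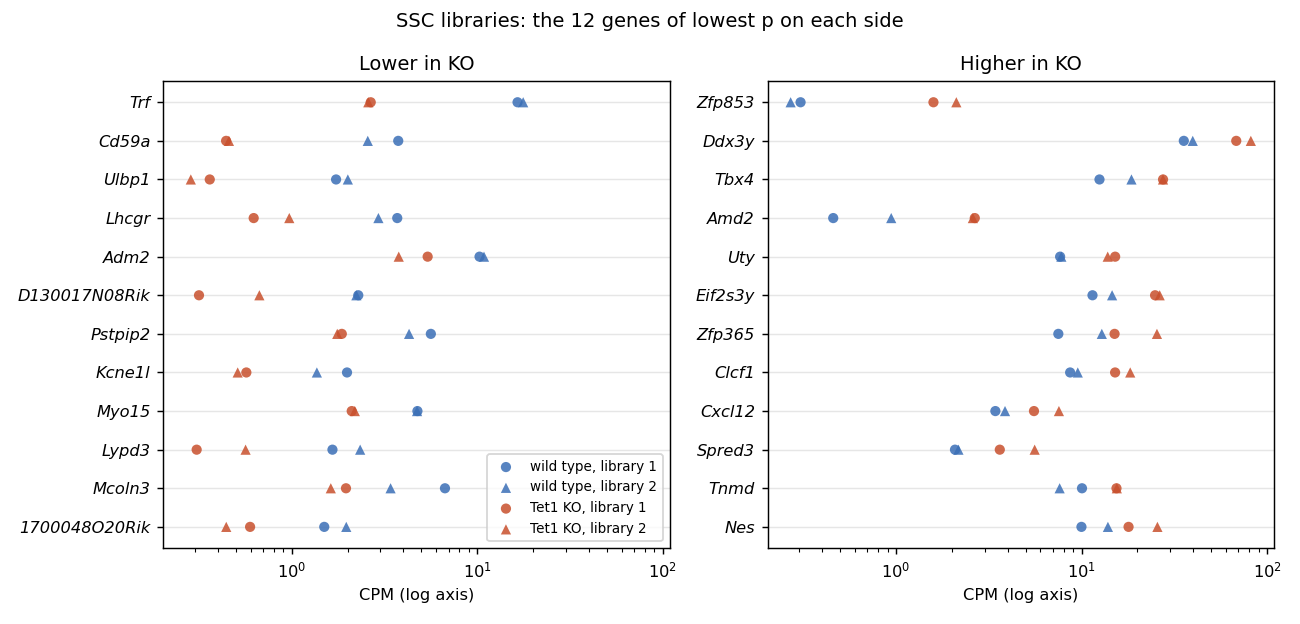
CPM (log axis) in each SSC library of the 12 genes of lowest p lower in KO (left) and higher in KO (right), with blue for wild type, orange for KO, circles for library 1 and triangles for library 2. The groups do not overlap for any of the 24, and the KO libraries of Trf sit at 2.66 and 2.59 CPM, far from wild type.

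Because TET1 acts at methylated CG dinucleotides, the start regions of these genes were read for CG content. The windows are from RefSeq on GRCm38.p6 and run from 250 bases before to 50 after the start, and the capitals mark every CG, counted once since it reads the same on both strands. Cd59a and Adm2 from the lower side and Tbx4 and Zfp853 from the higher side are shown, which span sparse to dense CG. They lie at chr2:104095551-104095850 (plus), chr15:89322470-89322769 (plus), chr11:85896515-85896814 (plus) and chr5:143293485-143293784 (minus).
Cd59a: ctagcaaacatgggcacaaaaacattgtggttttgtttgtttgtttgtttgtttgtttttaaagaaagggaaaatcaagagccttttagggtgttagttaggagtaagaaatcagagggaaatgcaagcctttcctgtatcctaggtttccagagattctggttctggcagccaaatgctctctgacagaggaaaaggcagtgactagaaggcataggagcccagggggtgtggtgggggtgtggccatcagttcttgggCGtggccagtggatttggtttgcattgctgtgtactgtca
Adm2: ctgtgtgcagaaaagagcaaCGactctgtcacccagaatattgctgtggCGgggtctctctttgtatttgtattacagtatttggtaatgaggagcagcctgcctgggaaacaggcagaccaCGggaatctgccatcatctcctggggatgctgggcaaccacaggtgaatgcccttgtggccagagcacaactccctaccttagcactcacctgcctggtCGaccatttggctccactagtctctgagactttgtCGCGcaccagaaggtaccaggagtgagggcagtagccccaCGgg
Tbx4: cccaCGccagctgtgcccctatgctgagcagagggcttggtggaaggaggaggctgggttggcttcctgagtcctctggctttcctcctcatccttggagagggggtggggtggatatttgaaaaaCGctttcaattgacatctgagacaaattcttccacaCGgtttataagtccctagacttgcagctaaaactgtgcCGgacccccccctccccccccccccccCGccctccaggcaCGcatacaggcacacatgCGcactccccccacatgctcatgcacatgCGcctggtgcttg
Zfp853: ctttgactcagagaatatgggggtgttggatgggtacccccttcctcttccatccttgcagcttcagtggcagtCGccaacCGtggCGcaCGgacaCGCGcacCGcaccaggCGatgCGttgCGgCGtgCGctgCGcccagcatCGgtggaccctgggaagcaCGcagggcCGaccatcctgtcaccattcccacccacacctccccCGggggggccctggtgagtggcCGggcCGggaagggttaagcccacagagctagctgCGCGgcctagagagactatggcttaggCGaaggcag
These windows held 1, 7, 8 and 22 CG. The sequence CG occurred in 94.2% of all 27025 promoter windows of this length, 1 per symbol, with a median of 7. The 9753 windows of genes with at least 1 CPM in SSC had a median of 21, and 84.9% of them held 10 or more. The 11 matched genes of the higher side had a median of 10 CG, and the 10 matched genes of the lower side had a median of 10.5. Trf, the only gene past the threshold, had no matched window, and neither did Pstpip2 or Clcf1. Myo15 and 1700048O20Rik, like Cd59a, held 1. The RefSeq window of Tbx4 lies inside the GENCODE span given above and does not reach its start at chr11:85886422. The windows of Mcoln3 and Spred3 likewise lie inside their GENCODE spans, so the sources place these starts apart. Methylation was not measured in these libraries, and the CG counts are a description of the RefSeq start only.

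The rounds were then compared gene by gene. Over 12641 genes of at least 1 CPM, the KO minus wild-type difference had the same sign in both rounds for 56.1%, and the differences of the rounds correlated at a Pearson r of 0.159 across genes, which share libraries and are not independent. Genes that reached 1 log2 unit or more in the same direction in both rounds numbered 14 higher (0.111%) and 29 lower (0.229%), while 289 reached it in round 1, 255 in round 2 and 19 did so in opposite directions. Spaca1, an acrosome membrane protein of sperm, had the largest fold among those 29 apart from the immunoglobulin gene Igha. Its levels were 2.51 and 4.08 CPM in wild type, which is 329 and 529 counts, against 0 and 0.0902 CPM in KO, which is 0 and 12 counts. The wild-type libraries were both high and the KO libraries both nearly empty, at a log2 fold change of -6.10 ± 1.72 and an edgeR adjusted p of 1.

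**Figure D3:**
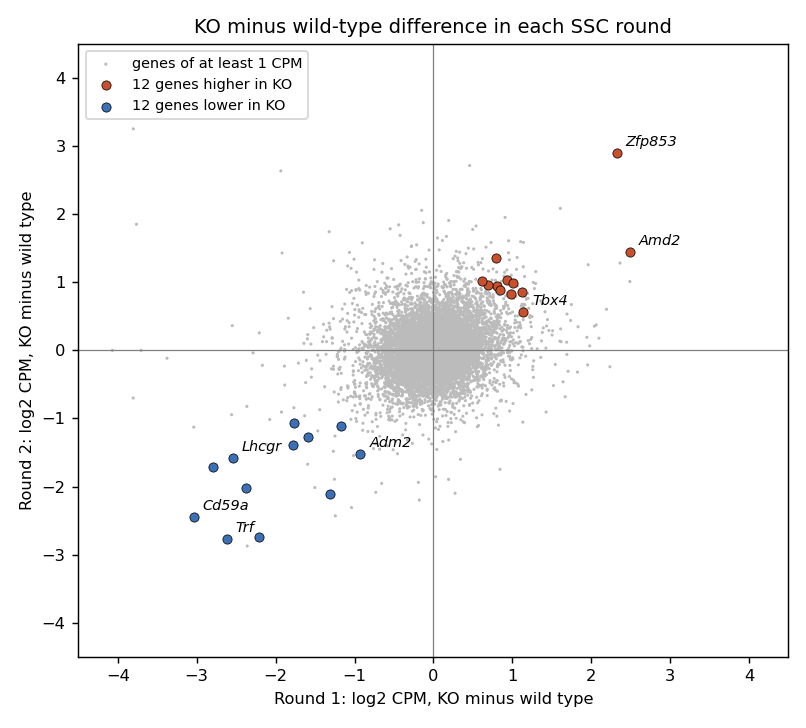
KO minus wild-type difference of log2 CPM in round 1 (horizontal) and round 2 (vertical) for genes of at least 1 CPM in SSC (grey), with the 12 genes lower (blue) and 12 higher (orange) in KO. The grey cloud shows little relation between rounds, and 14 genes lie outside the axes, which end at 4.5.

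Round was then used as a block, since the KO and wild-type SSC libraries of a round deviated together. In the 8-library fit 2 genes passed (0.00903%), Trf and the immunoglobulin gene Igkc (edgeR adjusted p 1.43e-05). Igkc was measured at 42.8, 0.0154, 0 and 0 CPM, so it rests on wild-type library 1 alone. In the 4 SSC libraries alone with the block, 179 of 20173 genes passed (0.887%), 91 higher and 88 lower in KO, with 1 residual degree of freedom. With so few degrees of freedom, the SE and p-values of that fit say little of each gene's own spread. That fit also passed Cstdc4, a stefin gene with near-identical copies, which was measured at 16.5 and 0 CPM in wild type against 0.334 and 0 CPM in KO, so round 2 held no count of it. Stfa2 and Stfa2l1, of the same family, were likewise highest in wild-type library 1. Groups did not overlap for 55 of the 91 and 69 of the 88, beside 14.5% (higher) and 13.1% (lower) of all 22153 tested genes. The same libraries chose these genes, so that separation is a description. Of the 24 genes above 22 passed, all but Cxcl12 and Kcne1l, which is a second look at the same libraries.

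Named by lowest p, the genes higher in that paired fit included Lif, a cytokine that keeps progenitors from maturing. Its level was 34.3 and 64.0 CPM in wild type against 58.3 and 125 CPM in KO, so its groups overlapped while each round rose (log2 0.76 and 0.97, edgeR adjusted p 6.54e-06). Tnfaip3, an inhibitor of NF-kB signalling (0.87 ± 0.14), and the receptor Tlr2 (0.76 ± 0.14) passed as well. In the edgeR fit across all libraries without the block, the SE was 0.74 for Tnfaip3 and 0.62 for Tlr2. The unadjusted p-values there were 0.38 and 0.28. The heat-shock gene Hspa1b (0.91 ± 0.14), the actin-binding Palld (0.80 ± 0.14) and the lipid phosphatase Lpin1 (0.78 ± 0.14) also passed. Most of these differed more between rounds than between genotypes. Tnfaip3, for one, was measured at 31.9 and 122 CPM in wild type against 75.8 and 173 CPM in KO. Of the 25 inflammatory and NF-kB genes 5 passed higher (Lif, Tnfaip3, Icam1, Nfkbia and Nfkbiz) and 1 lower (Cxcl1) in this fit, which passed 0.887% of all genes.

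Among the genes lower in the paired fit, Cxcl1, a chemokine that draws neutrophils, was measured at 63.2 and 132.6 CPM in wild type against 26.2 and 47.5 CPM in KO. Its groups did not overlap, and the log2 fold change was -1.38 ± 0.14 with an edgeR adjusted p of 5.57e-14. In the edgeR fit across all libraries without the block, Cxcl1 had an SE of 0.55 and an unadjusted p of 0.0319. Car12, a membrane carbonic anhydrase, was measured at 104.8 and 72.9 CPM in wild type against 57.4 and 37.7 CPM in KO (-0.91 ± 0.14). The antigen-presentation gene H2-DMb1 stood at 35.1 and 26.7 CPM in wild type against 19.7 and 11.7 CPM in KO (-1.01 ± 0.16). H2-Ab1, of the same class II system, was measured at 19.7 and 15.2 CPM in wild type against 9.67 and 8.25 CPM in KO. Acta1, skeletal muscle actin, stood at 9.07 and 17.5 CPM in wild type against 3.19 and 4.31 CPM in KO. Of 17 tested skeletal muscle genes 12 lay below 0 with a median of -0.29. Groups separated for 5 lower and 2 higher, beside 13.1% and 14.5% of all tested genes. The muscle genes summed to 69.6 and 46.7 CPM in wild type against 35.7 and 31.2 CPM in KO, with Ckm and Myh3 at 0.188 CPM or less in each library. The part of muscle RNA in the Acta1 difference was not tested. Il17b, a cytokine of the interleukin-17 family, fell in both rounds from 14.8 and 10.9 CPM to 6.22 and 4.56 CPM. Rlbp1, a carrier of retinaldehyde, stood at 24.9 and 25.2 CPM in wild type against 14.5 and 12.2 CPM in KO.

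DESeq2 on the same 4-group model passed 13 of 33146 genes (0.0392%), 1 higher and 12 lower. Zfp853 was the 1 higher (DESeq2 adjusted p 0.0171). Of the 12 lower, Trf, Cd59a (0.000332), Ulbp1 (0.0220), Lhcgr (0.0422) and the membrane protein gene Tmem266 (0.0111) were low in both KO libraries. Tmem266 was measured at 1.59 and 0.864 CPM in wild type against 0.0994 and 0.165 CPM in KO. The other 7 were immunoglobulin genes, Cyp2a5 and Bpifa1, all counted almost wholly in wild-type library 1. Without a filter on low counts edgeR passed 4 genes (0.0121%): Trf, Cd59a and Acta1 lower and Zfp853 higher.

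The BCSP libraries gave the same contrast in samples whose own difference did not choose these genes, although the 8-library fit shared its estimate of the spread with them. In BCSP 1 gene passed (0.00451%), again Trf, at -3.26 ± 0.30, from 25.7 and 41.1 CPM in wild type to 3.97 and 3.03 CPM in KO. The BCSP count was 3 with the replicate block, 37 with DESeq2, 38 with no filter on low counts and 0 with the Y-linked covariate. All 12 genes of the higher side were higher in KO in BCSP, and 11 of 12 had an unadjusted p under 0.05. Such a p in that direction was reached by 3.01% of genes of at least 1 CPM, and by 5.65% of those higher in SSC. On the lower side 11 of 12 were lower in BCSP and 10 of 12 had such a p. The shares there were 4.17%, and 7.76% of those lower in SSC. The 3 Y-linked genes count among the 12 higher. SSC and BCSP of a round may share animals, which the labels do not say. The direction was shared by 71.6% of all genes of at least 1 CPM.

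Of the genes from the paired SSC fit with at least 1 CPM, 89 of 91 higher (97.8%) and 71 of 80 lower (88.8%) kept their direction in BCSP, beside 64.5% and 78.9% of all genes higher or lower in SSC. An unadjusted p under 0.05 in that direction was reached by 42 higher (46.2%) and 42 lower (52.5%), beside 5.65% and 7.76%. Cytl1, a secreted protein of cartilage, was an exception: it was measured at 40.2 and 47.8 CPM in wild type against 72.5 and 71.8 CPM in KO in SSC, and its BCSP log2 fold change was -0.10. It was chosen after its values were seen.

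**Figure D4:**
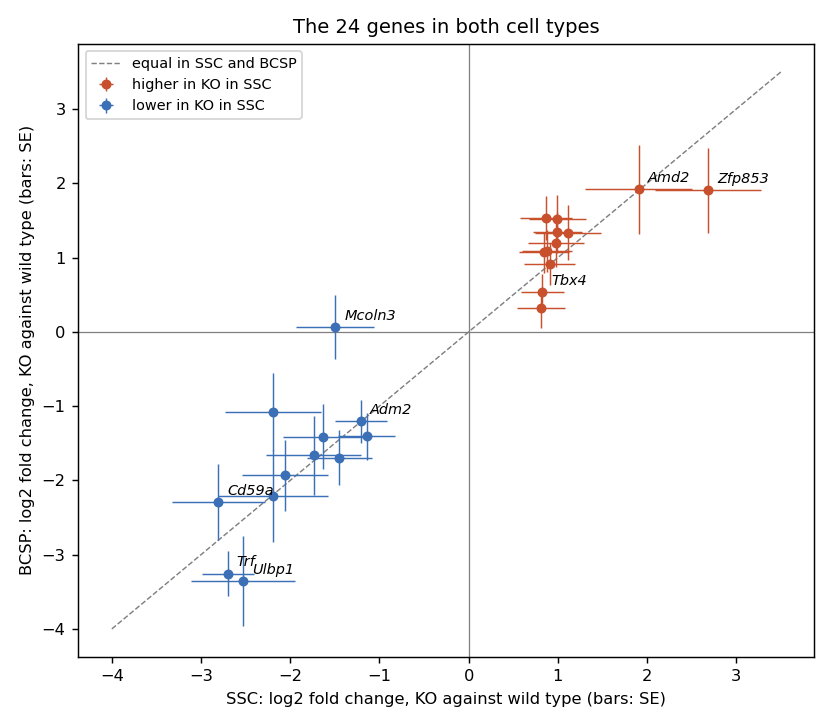
Log2 fold change of KO against wild type in SSC (horizontal) and BCSP (vertical) with SE bars for the 24 genes, 12 higher (orange) and 12 lower (blue) in SSC, where the dashed line marks equal values. All 12 orange points are above 0 on both axes, and 11 of the 12 blue points are below 0 on both, the other being Mcoln3 at -1.50 in SSC and 0.06 in BCSP.

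No gene passed in the test of the difference itself, SSC minus BCSP (0.0% of 22153, edgeR), where 282 had an unadjusted p under 0.05, and DESeq2 passed 2 immunoglobulin genes. Trf differed by 0.55 ± 0.39 between the cell types. The lowest p-values among genes of at least 1 CPM belonged to Star, Plek, Kcne2, Mcoln3 and Hilpda, all with an edgeR adjusted p of 1. Star, the mitochondrial cholesterol importer of steroid synthesis, was measured at 1.97 and 2.01 CPM in wild type against 1.45 and 1.20 CPM in KO in SSC, against 0.525 and 0.467 CPM and 1.67 and 1.63 CPM in BCSP. The KO libraries lay below wild type in SSC and above it in BCSP, a difference of -2.32 ± 0.65. Mcoln3 differed by -1.56 ± 0.61, the leukocyte gene Plek by -2.18 ± 0.79, the potassium channel subunit Kcne2 by -2.02 ± 0.75 and the hypoxia-induced lipid droplet gene Hilpda by 0.99 ± 0.39.

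Gene lists are given next by counts and medians, beside 14.5% of all tested genes with both KO libraries above wild type and 13.1% with both below. Except for Trf, no list member named below passed the 8-library threshold. Glycolysis and hypoxia genes lay mostly below 0: 20 of 27 were lower and the median was -0.39, at -0.37 in round 1 and -0.29 in round 2. Both KO libraries lay below wild type for 15 of 27. Car12 is described with the paired fit. The lactate exporter Slc16a3 was measured at 139.7 and 107 CPM in wild type against 70.0 and 68.5 CPM in KO. The glycolytic enzyme Pgam1 stood at 133 and 103 CPM in wild type against 82.4 and 69.5 CPM in KO. The oxygen sensor Egln1 stood at 57.4 and 63.1 CPM in wild type against 41.9 and 45.0 CPM in KO. In the paired SSC fit 5 of the 27 passed, all lower (Car12, Slc16a3, Pgam1, Pfkl and Pgk1), where 179 of 20173 genes passed (0.887%), 88 of them lower. The BCSP median of the list was -0.45.

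Other energy and growth lists leaned the same way. All 12 tested transcripts of the mitochondrial genome lay below 0, with a median of -0.31, and both KO libraries were below wild type for 3. Those included mt-Nd3 (-0.80 ± 0.45) and mt-Co1 (-0.31 ± 0.28), subunits of respiratory complexes, while mt-Nd2 (-0.42 ± 0.38) and mt-Cytb (-0.37 ± 0.38) had overlapping groups. For S phase 24 of 25 genes lay below 0 with a median of -0.24, and groups separated for 3. Its genes of low p included Ccne1 (-0.63 ± 0.43), Cdc6 (-0.48 ± 0.35) and Mcm2 (-0.34 ± 0.25), which act in DNA replication or its onset, all with overlapping groups. For endoplasmic reticulum folding 18 of 22 lay below 0, with a median of -0.19. The chaperone Hyou1 was measured at 66.0 and 56.6 CPM in wild type against 40.2 and 41.7 CPM in KO (-0.58 ± 0.21), followed by Creld2 (-0.51 ± 0.27), Manf (-0.54 ± 0.29) and Pdia4 (-0.42 ± 0.24). Oxidative phosphorylation and G2 and M phase lists had medians of -0.15 and -0.18, with no member whose groups separated.

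Sort and stem cell markers had 17 of 20 genes above 0, a median of 0.29 and separated groups for 8 higher and 1 lower. After Nes came the growth factor receptors Pdgfrb, at 33.0 and 46.1 CPM in wild type against 52.6 and 56.8 CPM in KO, and Pdgfra, at 29.2 and 41.9 CPM in wild type against 47.5 and 49.6 CPM in KO. Thy1, which the sort should exclude, was at 0.214 and 0.494 CPM in wild type against 0.623 and 1.14 CPM in KO. Of the 5 tested exclusion markers 3 lay above 0 and 2 below, with groups separated for 1 higher and 1 lower. An edgeR unadjusted p under 0.05 was reached by 0 of those above and 1 of those below. The medians of these markers were -1.12 in round 1 and 0.05 in round 2. Eng, another marker that SSC should lack, lay below 0. Genes of the joint's superficial zone had the highest median of the cartilage lists, 0.47, with 11 of 12 above 0. Tspan15 (1.31 ± 0.54), the transcription factor Erg (0.45 ± 0.22) and the hyaluronan receptor Cd44 (0.67 ± 0.44) were higher in both KO libraries, and Sfrp2 (0.50 ± 0.27) overlapped. For tendon and fibrous matrix 19 of 22 genes lay above 0, and their median was 0.19. With Tnmd came the tenascin Tnxb, at 3.82 and 4.42 CPM in wild type against 6.06 and 8.98 CPM in KO, Col14a1 (0.45 ± 0.23) and Thbs2 (0.42 ± 0.24).

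For cartilage matrix 19 of 25 genes lay below 0 with a median of -0.09, and groups separated for 9 lower and 1 higher. Epyc, a small proteoglycan of growth cartilage, was measured at 488 and 437 CPM in wild type against 356 and 252 CPM in KO (-0.60 ± 0.26). Hapln1 (-0.40 ± 0.31) and Cnmd (-0.24 ± 0.28) were also below wild type in both KO libraries, while Cilp (0.34 ± 0.27) overlapped. Hypertrophic genes split by round, with medians of 0.03 in round 1 and -0.47 in round 2. In that list Sp7 (-0.56 ± 0.34), a transcription factor of bone formation, Panx3 (-0.48 ± 0.40) and Pth1r (-0.40 ± 0.41) overlapped, and Pthlh (0.34 ± 0.27) was higher in both KO libraries. Of 16 osteoblast and mineral genes 9 lay above 0 and 7 below, with medians of -0.02 in round 1 and 0.36 in round 2. Sp7, which fell as given above, belongs to this list too. Dmp1, a mineral-binding protein, was measured at 3.04 and 3.26 CPM in wild type against 6.97 and 5.84 CPM in KO, and Postn (0.56 ± 0.28) and Ifitm5 (1.18 ± 0.92) were higher in both KO libraries as well.

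Signalling lists differed. In the TGF-beta pathway 21 of 24 genes lay above 0 with a median of 0.14, and groups separated for 10 higher and 1 lower. The receptor Acvrl1 was measured at 4.28 and 3.39 CPM in wild type against 6.50 and 5.94 CPM in KO (0.70 ± 0.28). The co-repressor Tgif1 (0.53 ± 0.22), the latent TGF-beta binding protein Ltbp1 (0.56 ± 0.27) and the focal adhesion protein Tgfb1i1 (0.39 ± 0.22) were higher too. BMP and Wnt lists had medians of 0.00, which changed sign with another scaling. Of 25 BMP genes 13 lay above 0 and 12 below, with groups separated for 6 higher and 1 lower. Of 25 Wnt genes 12 lay above 0 and 13 below, with groups separated for 5 higher and 4 lower. The ligand Bmp4 was measured at 1.77 and 1.74 CPM in wild type against 3.23 and 3.53 CPM in KO (0.94 ± 0.36), with Gdf6 (1.13 ± 0.72), Bmp2 (0.35 ± 0.23) and the antagonist Chrd (0.36 ± 0.24) behind it. The Wnt inhibitor Wif1 stood at 138.9 and 137 CPM in wild type against 188 and 250.5 CPM in KO (0.67 ± 0.27), and the stem cell receptor Lgr5 (1.45 ± 0.60) and the joint ligand Wnt9a (0.80 ± 0.43) were higher in both KO libraries. In the inflammatory list 18 of 25 lay above 0 with a median of 0.36, but only 1 gene separated upward and 3 downward. Its genes of lowest p were Cxcl1, Lif, Icam1 and Il1b, of which only Cxcl1 had groups that did not overlap. Il1b was at 4.48 CPM in wild-type library 1, where the neutrophil genes were also highest, and at 0.181 CPM or less in the other 3 libraries.

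Of the 19 tested genes flanking Tet1 on chromosome 10, 14 lay above 0, with a median of 0.09. Groups separated for 6 higher and 2 lower, with Tspan15, Pbld2 (1.42 ± 0.74), Srgn (-1.04 ± 0.57) and Dna2 (-0.53 ± 0.43) at the lowest p. Zfp365, from the higher side, lies on that chromosome at chr10:67886103-67912662, as do Ulbp1 and Amd2.

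**Figure D5:**
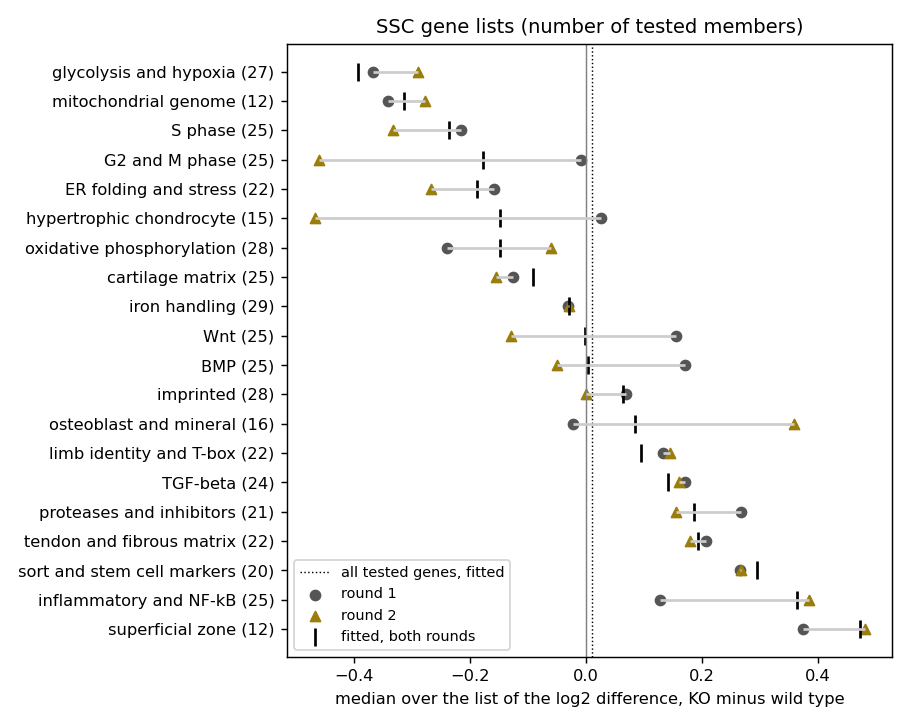
Median over the tested members of 20 gene lists of the KO minus wild-type log2 difference in SSC, for round 1 (circles), round 2 (triangles) and the fit over both (ticks), where the dotted line is the fitted median of all tested genes at 0.01. Glycolysis and the mitochondrial genome lie below 0 and superficial zone and sort and stem cell markers above 0 in both rounds, while hypertrophic and G2 and M genes are near 0 in round 1 and at -0.47 and -0.46 in round 2.

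With a Y-linked covariate, 26 of 46 medians changed sign, among them glycolysis (0.23), S phase (0.41), endoplasmic reticulum folding (0.17), cartilage matrix (0.40) and sort and stem cell markers (-0.04), whereas the mitochondrial genome (-0.08) and TGF-beta (0.05) did not. The covariate, the centred mean of Ddx3y, Eif2s3y, Kdm5d and Uty, was -0.94 to -0.19 in wild-type and 0.07 to 0.69 in KO libraries. It moves with genotype, so that fit cannot part the sex signal from genotype. The sex-linked list, which holds those genes, is among the 26. Leaving out 1 SSC library moved many medians as well. Without KO library 2 the superficial zone (-0.01), tendon (-0.03), limb and T-box (-0.09) and inflammatory (-0.20) medians were below 0. Those of the superficial zone and the inflammatory list were 0.79 and 0.76 without wild-type library 2. Without wild-type library 1 the medians of the mitochondrial genome and S phase shrank to -0.07 and -0.06, and those of oxidative phosphorylation (0.13), G2 and M phase (0.25) and hypertrophic genes (0.19) were above 0. Without KO library 1 they were -0.55, -0.61, -0.36, -0.91 and -0.62, and without wild-type library 2 they were -0.60, -0.48, -0.37, -0.50 and -0.51. Without KO library 2 they were -0.14, -0.04, -0.05, 0.27 and 0.13. The osteoblast median ran from -0.87 without KO library 1 to 0.65 without wild-type library 1, and the adrenomedullin median from -0.55 without KO library 2 to 0.16 without KO library 1. The glycolysis median stayed between -0.39 and -0.30 when any 1 SSC library was left out, that of TGF-beta between 0.06 and 0.28, of sort and stem cell markers between 0.20 and 0.41, of cartilage matrix between -0.19 and -0.08 and of endoplasmic reticulum folding between -0.35 and -0.10. Across 12637 genes of at least 1 CPM the SSC fold change and exon length had a Spearman rho of 0.209, 0.258 in round 1 and 0.0597 in round 2, and the median exon length was 870.5 bases in the mitochondrial list and 7008 in the tendon list. The part of sex composition, blood traces and length in these medians was not tested.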

How the data were processed

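Bulk RNA-seq of sorted mouse cells, with paired reads of 150 bases, was analysed from 1 table of raw gene counts deposited by the authors. Reads were aligned with STAR to mm10, counted with featureCounts and tested with DESeq2, per the submitters' processing notes. The deposited counts are instead labelled htseq, another counting program, so which one produced them is unclear. Versions, annotation and strand setting are not given in the sources used here. The table held 55471 entries, of which 22325 were 0 in all libraries. Positions came from GENCODE M21, matched for 55230 entries by gene identifier.

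Counts were filtered with filterByExpr (minimum count 10, total 15), scaled by TMM and fitted with edgeR 4.0.16 (robust quasi-likelihood, R 4.3.3) on 4 groups of 2 libraries, with 4 residual degrees of freedom. The script was tested on simulated data. DESeq2 1.42.0 and limma 3.58.1 (voom) were alternatives, with other scalings, filters, a Y-linked covariate, the round as a block and each library left out. Titles number the libraries by round, and rounds were taken as pairs. Deviations from group means had a Pearson r above 0 in all 6 pairs of groups. It was 0.559 between the SSC groups and 0.645 between the KO groups. Between the BCSP groups it was only 0.0590, which gives little ground for pairing those. Fold changes use all libraries, and no sample was dropped or imputed.

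Named genes were the Tet genes, Trf, Tbx4 and Adm2, every gene past the threshold, the 12 of lowest p a side with at least 1 CPM and the same sign in both rounds, up to 10 a side from the block, DESeq2 and unfiltered fits, the 4 of lowest p in each list described, the 5 of lowest p for the difference from BCSP, and those with the largest difference held in both rounds. Not every gene this rule yields is printed, and some items are not reported here. The genes and lists were chosen with earlier results of these data known.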

Additional observations from a re-analysis of the deposited data

Results flagged for a closer look

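For 2 genes the difference between SSC and BCSP in the KO against wild-type contrast passed the threshold when round was a block, and both had their highest SSC level in wild-type library 1. Igkc, the immunoglobulin kappa constant region of B lineage cells, differed by -12.50 ± 1.03 (SE, log2) with an edgeR adjusted p of 4.33e-04. Its BCSP levels were 35.2 and 0 CPM in wild type against 9.51 and 0.00821 CPM in KO. Stfa2, a stefin of neutrophils, differed by -7.09 ± 0.94 with an edgeR adjusted p of 0.0304. Its BCSP levels were 0.621 and 0 CPM in wild type against 3.08 and 0.0821 CPM in KO. Without the block neither passed.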

How the results depend on the processing

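The count of genes past the threshold in SSC, 1 in the 8-library fit, was 0 with SSC libraries only, limma-voom or the Y-linked covariate, 4 with no filter on low counts and 13 with DESeq2. It stayed at 1 with either other scaling and with a stricter filter. It ranged from 0 to 1 when 1 library was left out, at 0 without any 1 SSC library and at 1 without any 1 BCSP library. For the difference between SSC and BCSP, the count of 0 became 2 with DESeq2 and was 0 in each fit that left out 1 library.

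With the replicate block, which pairs libraries by round, the counts were 2 in SSC and 2 for the difference in 8 libraries, and 179 in the 4 SSC libraries alone. The 8-library block added Igkc in SSC, Igkc and Stfa2 for the difference, and raised the BCSP count from 1 to 3, while the sign of Kcne2 turned (0.00434).

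Of 134 named genes 88 kept their sign in each alternative that gave a value. A kept sign did not mean a kept size. Under the Y-linked covariate the log2 fold change of Nes went from 0.87 to 0.0127, and that of Tnmd from 0.81 to 1.31. With the Y-linked covariate the log2 fold change was of the other sign for Calca (-0.28), Ccne1 (1.03), Cd44 (-0.88), Ckm (1.43), Cnmd (0.27), Col2a1 (0.50), Creld2 (0.26), Eif2s3y (-0.19), Eng (0.037), Ggn (0.53), Itgav (-0.18), Kdm5d (-0.0583), Lmx1b (-0.37), Lpin1 (-0.0203), Manf (0.43), Mcm2 (0.22), Nfkbiz (-0.0379), Ogt (-0.98), Pdia4 (0.0189), Pfkl (0.28), Pgam1 (0.23), Pgk1 (0.56), Postn (-0.069), Pth1r (0.61), Ryk (0.30), Slc16a3 (0.29), Sp7 (0.0123), Srgn (0.10), Stfa2 (1.49), Stfa2l1 (6.04), Tek (-1.35), Tet2 (-1.22), Tet3 (-0.35) and mt-Nd3 (0.20). When 1 library was left out, the range included both signs, or 0, for Calca -0.62 to 1.95, Cd200 -0.42 to 0.62, Ckm -0.55 to 0.30, Col2a1 -0.16 to 0.0123, Cstdc4 -13.05 to 7.38, Cyp2a5 -11.85 to 0.00, Hilpda -0.0933 to 0.15, Il1b -5.62 to 1.83, Kcne2 -0.25 to 0.24, Lmx1b -0.0401 to 0.81, Nfkbiz -0.0739 to 1.23, Ogt -0.0692 to 0.65, Panx3 -1.39 to 0.0569, Pth1r -1.10 to 0.056, Ptprc -6.03 to 1.04, Ryk -0.27 to 0.13, Sox9 -0.14 to 0.16, Srgn -1.68 to 0.12, Stfa2 -8.69 to 1.69, Stfa2l1 -11.89 to 8.11, Tek -1.27 to 4.53, Tet2 -0.0415 to 0.58, Tet3 -0.0377 to 0.28, Tlr2 -0.000256 to 1.59, Tnfaip3 -0.0426 to 1.96 and mt-Nd2 -0.76 to 0.000646. Eif2s3y and Kdm5d are among the genes averaged into the Y-linked covariate, so their change with it was built in. The cause of the other changes was not tested. With 2 libraries a group, an arm left with 1 library was assumed to vary like the other groups. The smallest SSC library held 104782544 counts, and levels under about 0.1 CPM rest on few of them.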

Other observations

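Cyp2a5 and Bpifa1, genes known from other tissues, were counted in wild-type library 1 of both sorted populations and hardly elsewhere. Cyp2a5, a cytochrome of liver and nasal lining, reached 3.66 CPM in SSC and 3.94 CPM in BCSP of wild-type library 1, against at most 0.00798 CPM in the other 6 libraries. Bpifa1, a secreted protein of airway lining, was at 3.01 and 3.33 CPM in the same libraries and at most 0.00772 CPM in the others. Spaca1, named above, differed: it was at 2.40 and 5.31 CPM in wild-type BCSP and at 0 and 0.304 CPM in KO BCSP, so that all 4 wild-type libraries held it.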
